A study of Bos taurus with 6 samples.

Results

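The 50 genes described here encode the proteins that hold, compact, attach and separate chromosomes in mitosis, namely the spindle checkpoint, the anaphase-promoting complex (APC/C), cohesin, condensin, the mitotic kinases and the kinetochore. They were taken by gene symbol from the expression table, in which all 50 were found, each under 1 identifier, among 36075 genes. Bovine (Bos taurus) oocytes from slaughterhouse ovaries were matured for 22 h with melatonin (MT) at 1e-07 mol/L or without MT, fertilized and cultured in vitro, and the resulting blastocysts were sequenced. The control group and the MT group held 3 libraries each, every library was a pool of 3 blastocysts, and the libraries of a group came from 3 separate production runs. MT was given to the oocyte and its cumulus cells only, so the blastocysts were measured days after exposure. The question was how MT during maturation bore on the blastocyst transcriptome.

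In a dividing cell, replicated sister chromatids are held together by cohesin, a ring of SMC proteins, and are compacted by the related condensin complexes. Kinetochores built on centromeric chromatin attach the chromatids to spindle microtubules, and unattached kinetochores assemble a checkpoint complex that restrains the APC/C, a ubiquitin ligase. Once all kinetochores are attached, the APC/C marks securin for destruction, separase is set free, and it cleaves cohesin. The cleavage-stage embryo and blastocyst divide rapidly, and chromosome segregation errors are common in bovine embryos produced in vitro.

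Values were TPM (reads of a gene scaled to its length and to the library's total), which can be compared between genes. As bulk values they are shares of the RNA of a pool, so fewer cells of a type and less RNA per cell cannot be told apart. Between 8854 and 8953 genes were above 0 in the control libraries, against 14372 to 14408 in the MT libraries. Of the 50 mitotic genes, 41 or 42 were above 0 in each control library and all 50 in each MT library. The whole-blastocyst label was checked against marker genes. POU5F1, KRT8 and KRT18 were present in all 6 libraries, but CDX2, ELF5 and NANOG were listed at 0 in every control library, and CDX2 averaged 16.1 TPM and NANOG 8.68 TPM with MT. Trophectoderm markers summed to 12368 to 12742 TPM in the control libraries and 11331 to 11692 TPM with MT. Of the 12, 8 were higher and 4 lower, beside 61.6% and 34.1% of all genes tested. CDX2 and ELF5 entered the test (at least 1 TPM in 3 libraries) through MT alone and TFAP2A through control alone. Control and MT means were 7.07 TPM and 49.1 TPM for GATA2 and 22.4 TPM and 42.4 TPM for TFAP2C. They were 36.1 TPM and 0.49 TPM for TFAP2A and 57.7 TPM and 11.3 TPM for ELF3. Of the 7 inner cell mass markers 3 were higher and 2 lower. NANOG and SOX2, both higher, entered the test through MT alone, and LIN28B, lower, through control alone. The other 2 called were KLF4, with means of 18.1 TPM and 83.8 TPM, and DPPA3, with 196 TPM and 108 TPM. Hypoblast markers summed to 204 to 208 TPM in control and 524 to 528 TPM with MT, and 5 of the 7 were at 0 in all control libraries and 2 in all MT libraries. The 4 hypoblast markers that could be tested were all higher by at least 2-fold with MT, as were 51.0% of all genes tested. GATA6, PDGFRA and HNF4A entered the test through MT alone. GATA6 had means of 0.327 TPM and 32.0 TPM, and FN1, present in all 6 libraries, had means of 206 TPM and 461 TPM. Among 10 cumulus and granulosa markers, 9 were at 0 in all control libraries and 4 in all MT libraries, and among 13 maternal oocyte markers the numbers were 12 and 9. The cumulus markers summed to 17.2 to 19.2 TPM in control and 27.8 to 29.0 TPM with MT. CD44, which entered the test through MT alone, was at 0 in control and at a mean of 12.2 TPM with MT. FSHR, the only other one tested and the whole of the control sum, was called lower, with means of 18.2 TPM and 16.0 TPM. The oocyte markers summed to 45.6 to 49.3 TPM in control and 21.8 to 24.2 TPM with MT, nearly all of it OOEP, which fell from a mean of 47.7 TPM to 21.3 TPM. The part of these differences in the results below was not tested.

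Every one of the 49 mitotic genes that could be tested differed between the groups, with 24 higher and 25 lower in MT blastocysts. Over all 11953 genes tested, 61.6% were called higher and 34.1% lower, and the groups did not overlap in 96.1%, so that a difference in itself set no gene apart. The filter described below fixed the direction of 11 of the 24 and 1 of the 25. The test was limma on log2(TPM + 1) with Benjamini-Hochberg adjustment, and adjusted p among the 49 ran from 5.70e-10 for CDC26 and ZWINT to 0.00849 for BIRC5. CDC26 and ZWINT, among these 11, were at 0 in every control library, so the control group gave them no spread. The test measured only the spread between 3 libraries a group, and an exact permutation test of 3 against 3 could not go below p = 0.1. A change of at least 2-fold was called in 19 of the 49 upward and 11 downward, beside 51.0% and 19.6% of all genes tested. The remaining 19 mitotic genes, or 38.8%, differed by less than 2-fold, against 29.4% of all genes. The median log2 fold change of the 49 was −0.08, that of all genes 1.12.

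Many genes of the table were listed at 0 throughout the control group, some of the mitotic genes among them. BUB1, TTK, ANAPC4, ANAPC7, CDC26, NCAPD2 and ZWINT were listed at 0 in all 3 control libraries, which is 14.3% of the 49, against 33.8% of all genes tested. FZR1, ANAPC5, STAG1 and PLK1 were under 1 TPM in every control library. These 11 genes, 22.4% of the 49 beside 42.5% of all genes tested, passed the low-value filter (at least 1 TPM in 3 libraries) through the MT group alone and so had to come out higher, and all were called higher by at least 2-fold. BUB1B passed through the control group alone and had to come out lower. Of the other 37 genes, 13 were higher and 24 lower, beside 2285 and 3410 of the 6210 such genes in the table. None of the 49 was at 0 throughout the MT group. TPM hold no read counts, so the depth behind a 0 is unknown and no fold change from the deposited TPM is given for the 7 genes at 0 there. Over the 41 members above 0 in all 6 libraries the median log2 fold change was −0.48, beside −0.19 over the 6925 such genes.

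The direction of a summary over these genes depended on how the libraries were scaled. Quantile normalization moved the median of all genes by −1.08 on the log2 scale and median centring by 0.48. With the first, 16 mitotic genes were called higher and 31 lower, and with the second 27 and 19. Among calls of at least 2-fold, the share that was higher was 63.3% for the mitotic genes as deposited, 42.9% after quantile normalization and 67.7% after centring. The same shares for all genes were 72.2%, 49.8% and 79.6%. In level, 12 of the 50 genes averaged under 1 TPM in control and 7 averaged 100 TPM or more, against 2 and 6 with MT. MAD2L1, BUB3, SPC24, ANAPC11 and PTTG1 were among the 7 highest in both groups. Replicates lay close together, with a median coefficient of variation of 2.81% in control and 3.52% with MT.

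**Figure D1:**
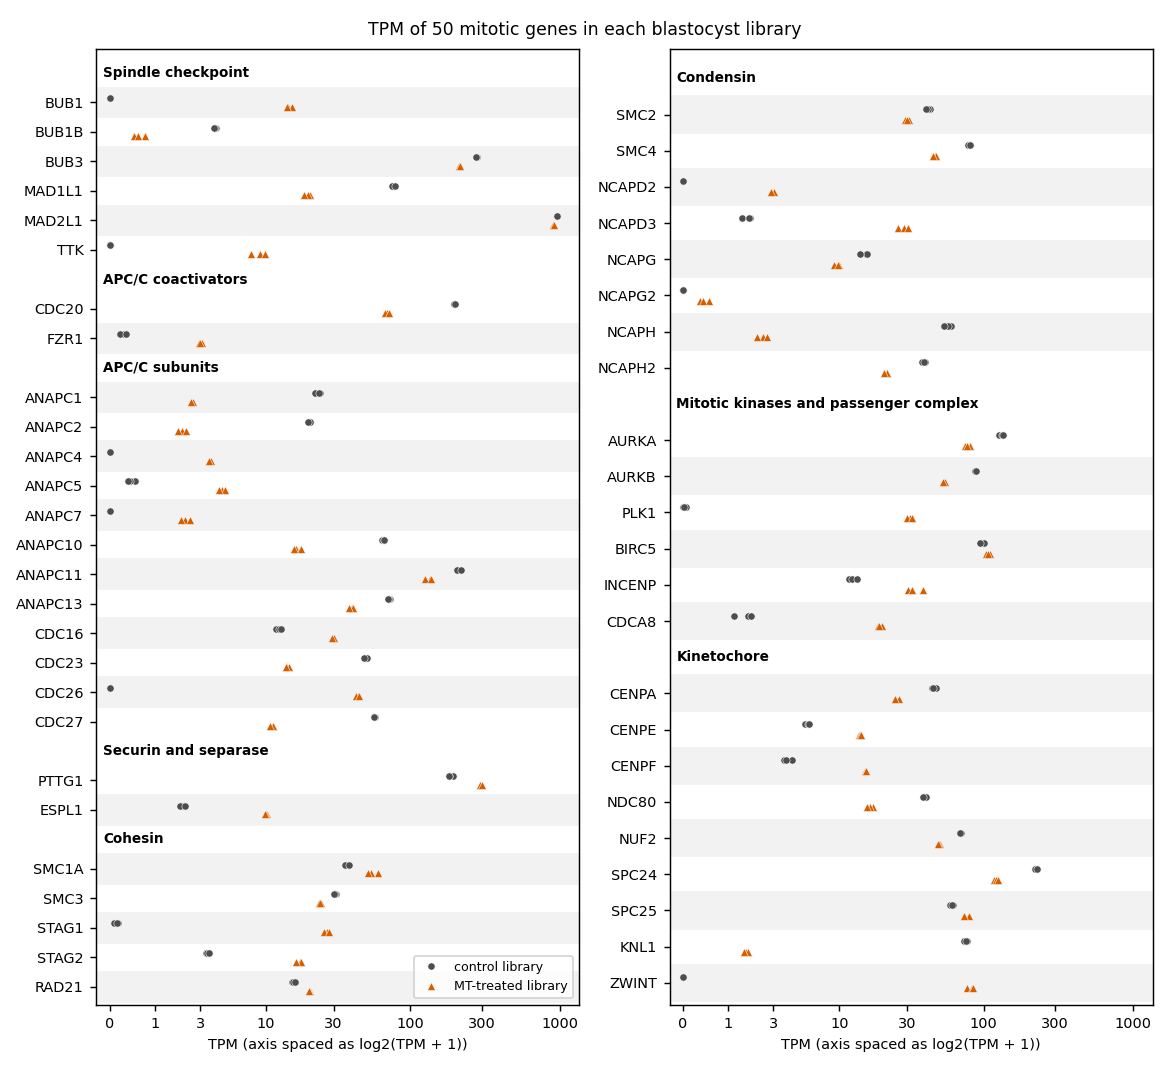
TPM of each of the 50 genes in each library, on an axis spaced as log2(TPM + 1), in 8 role groups, with circles for the 3 control libraries and triangles for the 3 MT libraries. Circles and triangles are apart for every gene, MAD2L1 is highest in both groups, and 8 genes, NCAPG2 included, sit at 0 in all control libraries.

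**Figure D2:**
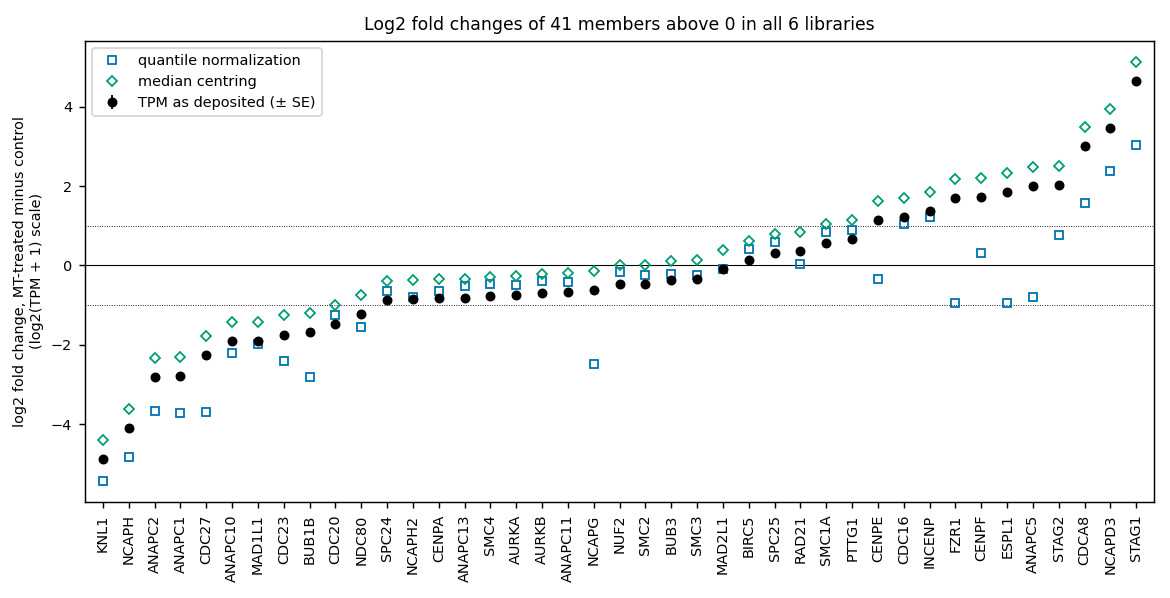
Log2 fold changes (MT minus control, log2(TPM + 1) scale) of the 41 genes above 0 in all 6 libraries, from TPM as deposited (black circles, bars are SE and mostly smaller than the symbol), after quantile normalization (squares) and after median centring (diamonds), with dotted lines at 2-fold. KNL1 and NCAPH lie lowest and STAG1 and NCAPD3 highest under all 3 scalings, whereas FZR1, ANAPC5, ESPL1 and CENPE fall below 0 with quantile normalization and BUB3, MAD2L1 and SMC3 rise above 0 with centring, which also brings SMC2 and NUF2 to about 0.

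Of the 6 spindle checkpoint genes 2 were higher and 4 lower, or 4 higher and 2 lower after median centring. Both that were higher entered the test through MT alone, and BUB1B, lower, through control alone. The remaining 3 were all lower in the deposited TPM. BUB1, the kinase that recruits checkpoint proteins to kinetochores, was listed at 0, 0 and 0 TPM without MT and at 14.3, 15.3 and 14.3 TPM with it. TTK, the kinase that starts checkpoint signalling, read 0, 0 and 0 TPM in control and 8.98, 9.90 and 7.77 TPM with MT. Both checkpoint kinases were thus listed only in MT blastocysts. MAD1L1, the kinetochore receptor for MAD2, read 77.0, 75.0 and 78.1 TPM in control and 20.5, 19.9 and 18.8 TPM with MT, all MT libraries lying far below all control libraries (log2 fold change −1.91 ± 0.04, MT minus control on the log2(TPM + 1) scale, ± SE). BUB1B, which encodes the checkpoint inhibitor BUBR1, went from 4.11, 4.05 and 3.93 TPM to 0.71, 0.45 and 0.55 TPM (−1.68 ± 0.06). It had to come out lower and its relative BUB1 higher, so their opposite order was set by the filter. The most abundant of the 50 genes, MAD2L1, the checkpoint protein that binds CDC20, had the smallest change of the 49 in the deposited TPM, though not under either other scaling. It read 954, 965 and 962 TPM in control and 906, 902 and 911 TPM with MT (−0.08 ± 0.01), and rose by 0.40 after centring. BUB3, the partner of BUB1 and BUBR1, read 280.5, 275 and 276 TPM and 213, 211 and 217 TPM (−0.37 ± 0.02), with a rise of 0.10 after centring. MAD2L1 made up 72.8% of the summed TPM of these 6 genes in control and 77.9% with MT.

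Of the APC/C coactivators, CDC20 was lower and FZR1 higher in the deposited TPM, FZR1 having entered the test through its MT values alone, and both were lower after quantile normalization. CDC20, which activates the APC/C at anaphase and is the checkpoint's target, read 196, 195 and 199.7 TPM in control and 69.3, 67.6 and 71.6 TPM with MT, a fall to 0.353 of the control mean with no overlap (log2 fold change −1.49 ± 0.03). FZR1, or CDH1, the coactivator of mitotic exit and G1, read 0.24, 0.17 and 0.29 TPM in control and 2.96, 3.11 and 2.98 TPM with MT (1.70 ± 0.04), but −0.93 after quantile normalization, so its direction turned on the scaling. CDC20 remained the more abundant in each of the 6 libraries.

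Of the 12 APC/C subunits 5 were higher and 7 lower, of which 5 in each direction by at least 2-fold, and 2 higher and 9 lower after quantile normalization. Of the 5 that were higher, 4 entered the test through MT alone and had to come out so. Among the other 8 subunits 1 was higher and 7 were lower. ANAPC4, a scaffold subunit, read 0, 0 and 0 TPM in control and 3.57, 3.76 and 3.58 TPM with MT. ANAPC7, a subunit of the TPR lobe, read 0, 0 and 0 TPM and 2.19, 2.41 and 2 TPM, and in RefSeq its gene overlaps ATP2A2. After quantile normalization these low levels gave log2 fold changes of −0.0067 for ANAPC4, which was not called, and −0.27 for ANAPC7. CDC26, a small subunit that stabilizes CDC16, read 0, 0 and 0 TPM in control and 44.2, 43.1 and 44.7 TPM with MT, the highest of the 3 among these 12 subunits that were listed at 0 in control. ANAPC5, a further scaffold subunit, read 0.48, 0.36 and 0.33 TPM and 4.58, 4.89 and 4.35 TPM (2.01 ± 0.06, and −0.80 after quantile normalization).

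The largest falls in the APC/C were those of ANAPC2, ANAPC1 and CDC27. ANAPC1, the largest scaffold subunit, read 24.1, 22.3 and 23.7 TPM in control and 2.46, 2.58 and 2.48 TPM with MT, 9.32-fold lower in mean TPM (log2 fold change −2.80 ± 0.04). ANAPC2, the cullin of the catalytic module, read 20.5, 20.7 and 19.97 TPM and 2.03, 2.24 and 1.84 TPM (−2.82 ± 0.06), a fall of similar size. CDC27, a TPR subunit to which the coactivators bind, read 57.9, 56.3 and 57.0 TPM and 11.3, 11.2 and 10.8 TPM (−2.27 ± 0.03), and RefSeq places its gene over part of MYL4. All 3 fell under both other scalings. The remaining subunits were CDC16, higher by 1.22 on the log2 scale, and ANAPC10, CDC23, ANAPC13 and the RING subunit ANAPC11, lower by 1.91 to 0.67, of which ANAPC10, CDC23 and ANAPC11 overlap ABCE1, KIF20A and ALYREF in RefSeq.

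The balance between subunits was also compared within each library, over modules and pairs that were chosen after the values had been seen. Such ratios of TPM do not change when a library is multiplied by a factor, but quantile normalization can change them. In the catalytic module of ANAPC2, ANAPC10 and ANAPC11, ANAPC11 was highest and ANAPC2 lowest in both groups, ANAPC11 exceeding ANAPC2 by 10.3-fold in control and by 64.9-fold with MT. The 12 subunits summed to 511 ± 6.05 TPM in control and 303 ± 4.55 TPM with MT (SD, n = 3), ANAPC11 being the largest term in both.

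Securin and separase were both higher in the deposited TPM, and 1 was higher and 1 lower after quantile normalization. PTTG1, securin, read 193, 181 and 182 TPM in control and 295, 291 and 303 TPM with MT (log2 fold change 0.67 ± 0.03), every MT library lying above every control library. ESPL1, separase, the protease that cleaves cohesin, read 2.09, 1.92 and 2.16 TPM and 10.2, 10.03 and 9.76 TPM (1.85 ± 0.04, and −0.94 after quantile normalization). PTTG1 exceeded ESPL1 in every library, by 90.3 ± 5.29-fold in control and 29.6 ± 1.22-fold with MT (mean ± SD, n = 3, as for the other ratios). That fall of the ratio did not hold after quantile normalization, with which PTTG1 changed by 0.89 and ESPL1 by −0.94 on the log2 scale.

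Of the 5 cohesin genes 4 were higher and 1 was lower (quantile normalization 3 and 1, centring 5 and 0), where 61.6% of all genes tested were higher, and STAG1 entered the test through MT alone. STAG1 and STAG2 are alternative subunits that help load the ring onto chromatin. STAG1 read 0.14, 0.07 and 0.12 TPM in control and 27.3, 25.8 and 27.8 TPM with MT, from near 0 to a level above all of the 5 genes but SMC1A, and it overlaps LOC101905125 in RefSeq. STAG2 read 3.37, 3.44 and 3.59 TPM and 17.6, 18.0 and 16.3 TPM (log2 fold change 2.03 ± 0.05, and 0.77 after quantile normalization, under 2-fold). The ratio of STAG1 to STAG2 went from 0.0318 ± 0.0107 to 1.56 ± 0.134, so STAG2 was the more abundant in control and STAG1 with MT.

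The ring subunits differed less than the STAG genes in the deposited TPM, though after quantile normalization SMC1A (0.83) stood above STAG2 (0.77). SMC1A read 36.7, 35.8 and 38.1 TPM in control and 60.1, 54.0 and 51.4 TPM with MT (log2 fold change 0.57 ± 0.06). SMC3, which pairs with SMC1A, read 31.0, 30.9 and 30.1 TPM and 23.9, 24.6 and 24.0 TPM (−0.33 ± 0.03, and 0.15 after centring). RAD21, the subunit that closes the ring and that separase cleaves, read 15.3, 15.5 and 16.2 TPM and 20.7, 20.3 and 20.4 TPM (0.36 ± 0.03), and was not called after quantile normalization (limma, Benjamini-Hochberg adjusted p = 0.298).

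Condensin exists in a form I, with NCAPD2, NCAPG and NCAPH, and a form II, with NCAPD3, NCAPG2 and NCAPH2, both built on SMC2 and SMC4. Of the 7 genes tested 2 were higher and 5 lower, with 1 and 6 after quantile normalization and 2 and 3 after centring. NCAPD2, 1 of those higher, entered the test through MT alone. NCAPH, the kleisin of condensin I, read 60.6, 57.2 and 54.2 TPM in control and 2.40, 2.64 and 2.12 TPM with MT, 24.0-fold lower in mean TPM (log2 fold change −4.11 ± 0.07). NCAPD3, a HEAT-repeat subunit of condensin II, read 1.48, 1.78 and 1.77 TPM and 26.0, 28.9 and 30.7 TPM, 17.0-fold higher (3.46 ± 0.08), and overlaps LOC101902204 in RefSeq. These opposite changes stood beside a smaller fall of NCAPH2, the kleisin of condensin II, from 40.1, 38.0 and 39.5 TPM to 21.8, 22.1 and 20.7 TPM (−0.83 ± 0.04).

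NCAPD2 read 0, 0 and 0 TPM in control and 2.86, 3.01 and 2.88 TPM with MT, and −0.13 on the log2 scale after quantile normalization. NCAPG2 read 0, 0 and 0 TPM and 0.48, 0.30 and 0.35 TPM, under the filter, and is the 1 member left out of the test. NCAPG, which overlaps DCAF16 and LCORL in RefSeq, fell by 0.61 on the log2 scale, with −2.48 after quantile normalization and −0.13 and no call after centring (limma, Benjamini-Hochberg adjusted p = 0.0722). SMC4 and SMC2 fell by 0.76 and 0.46, SMC2 reading 0.015 and not called after centring. The ratio of NCAPH to NCAPH2 went from 1.46 ± 0.0774 in control to 0.111 ± 0.00867 with MT. Summed over the non-SMC subunits, condensin I went from 72.6 ± 3.98 to 14.9 ± 0.211 TPM and condensin II from 40.8 ± 0.962 to 50.4 ± 1.89 TPM.

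**Figure D3:**
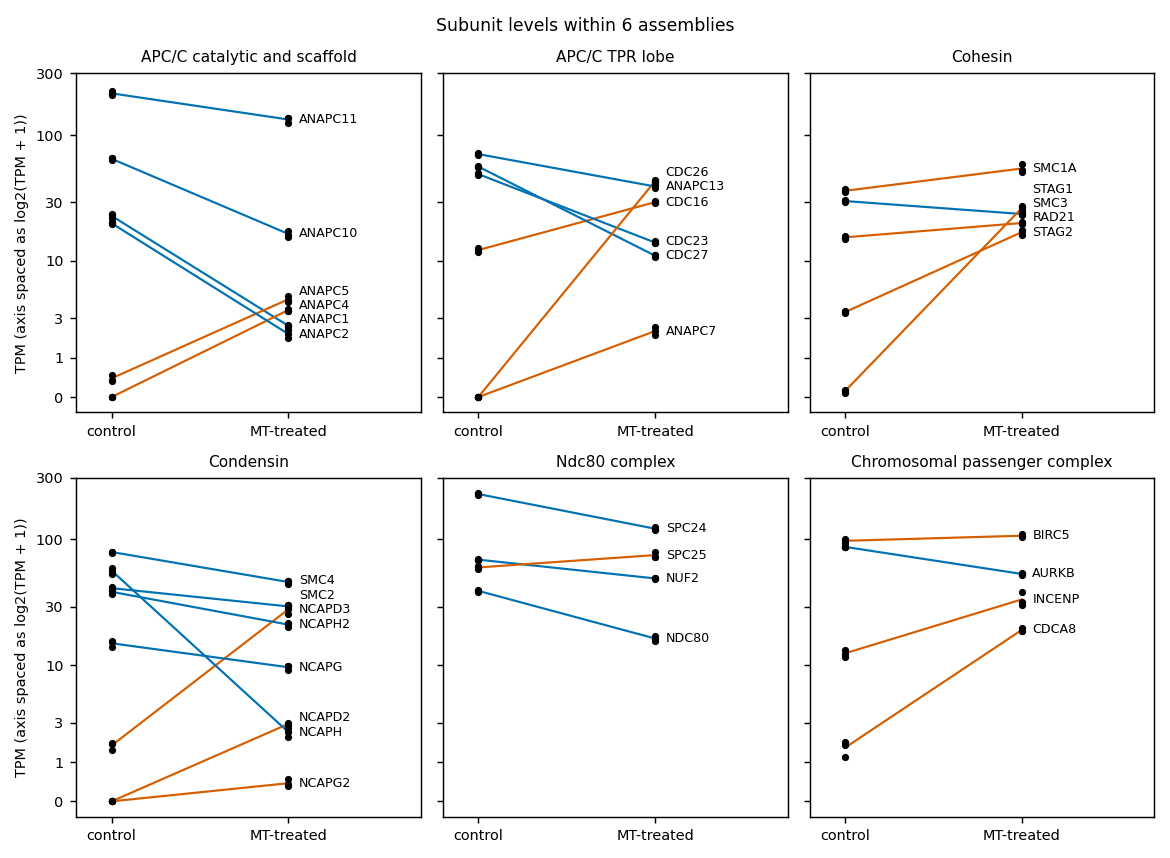
Mean TPM of the subunits of 6 assemblies in control and MT blastocysts, on an axis spaced as log2(TPM + 1), with a dot for each library and a line for each subunit, orange where the mean was higher with MT and blue where it was lower. Lines cross in the APC/C, cohesin and condensin panels, as for STAG1 over STAG2 and NCAPD3 over NCAPH, while the order within the Ndc80 complex changes only between SPC25 and NUF2.

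Mitotic kinases and chromosomal passenger genes were higher in 4 of 6 and lower in 2, as they were under both other scalings, and PLK1 entered the test through MT alone. PLK1, the kinase needed for spindle assembly and cohesin removal, read 0, 0.04 and 0.02 TPM in control and 31.8, 30.3 and 32.8 TPM with MT, near 0 in 1 group only, and overlaps ERN2 in RefSeq. AURKA, the centrosomal kinase that activates PLK1, read 127, 133 and 134 TPM and 74.7, 81.3 and 76.9 TPM (log2 fold change −0.75 ± 0.04). AURKB, the kinase of the passenger complex, read 87.5, 87.4 and 88.1 TPM and 54.4, 54.7 and 53.0 TPM (−0.69 ± 0.02). The ratio of AURKA to AURKB overlapped between the groups, at 1.5 ± 0.0390 in control and 1.44 ± 0.0573 with MT (SD, n = 3).

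The partners of AURKB did not fall with it. INCENP, the scaffold that activates AURKB, read 11.8, 12.4 and 13.5 TPM in control and 38.8, 30.8 and 32.7 TPM with MT (log2 fold change 1.37 ± 0.10), and overlaps CSKMT in RefSeq. CDCA8, or borealin, read 1.70, 1.18 and 1.84 TPM and 19.1, 20.4 and 19.1 TPM, 12.4-fold higher (3.00 ± 0.10). BIRC5, survivin, which brings the complex to centromeres, had the smallest rise, from 98.5, 100.3 and 94.2 TPM to 104, 109.9 and 107 TPM (0.13 ± 0.03). INCENP stood at 0.143 ± 0.00942 of AURKB in control and 0.632 ± 0.0765 with MT. From the lowest to the highest of these 4 subunits the levels spanned 62.1-fold in control and 5.48-fold with MT.

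Kinetochore genes were higher in 4 and lower in 5 of 9, with 3 and 6 after quantile normalization and 4 and 4 after centring, and ZWINT entered the test through MT alone. KNL1, the outer kinetochore scaffold to which BUB1 and BUB3 bind, read 77.8, 73.9 and 76.5 TPM in control and 1.61, 1.73 and 1.53 TPM with MT, 46.9-fold lower in mean TPM (log2 fold change −4.88 ± 0.04). ZWINT, which binds KNL1, read 0, 0 and 0 TPM and 77.3, 83.6 and 84.4 TPM. KNL1 was under 2 TPM with MT, whereas ZWINT, at 0 in control, had to come out higher. The opposite directions of these binding partners were thus partly fixed by the filter.

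Of the Ndc80 complex, the main microtubule attachment, NDC80 read 40.1, 40.4 and 39.1 TPM in control and 17.4, 16.6 and 15.9 TPM with MT (log2 fold change −1.21 ± 0.04, and −0.73 after centring). SPC24 read 224, 220.1 and 228 TPM and 118, 121 and 124 TPM (−0.88 ± 0.03). Its partner SPC25 went the other way, from 59.3, 62.2 and 60.7 TPM to 73.7, 79.8 and 73.6 TPM (0.31 ± 0.04). SPC24 exceeded SPC25 by 3.69 ± 0.132-fold in control and 1.6 ± 0.0823-fold with MT. NUF2 fell by 0.48 on the log2 scale, with a change of 0.0018 and no call after centring. The complex summed to 394 ± 2.71 TPM in control and 263 ± 4.17 TPM with MT, and no member of it was at 0.

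Among the large kinetochore proteins CENPF read 3.74, 4.36 and 3.88 TPM in control and 15.4, 15.7 and 15.5 TPM with MT (log2 fold change 1.73 ± 0.05, and 0.30 after quantile normalization, under 2-fold). CENPE, the kinetochore kinesin, rose by 1.15 and reversed to −0.33 after quantile normalization. CENPA, the centromeric histone H3 variant, averaged 46.0 ± 1.17 TPM in control and 25.4 ± 1.04 TPM with MT (SD, n = 3), a fall of less than 2-fold. SPC24 had the highest mean of the 9 genes in both groups, 224 TPM in control and 121 TPM with MT.

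Of 100 further genes of the same processes, 96 were in the table and 90 passed the filter, with 53 higher, 34 lower and 3 not called, or 42 higher and 44 lower after quantile normalization and 58 and 24 after centring. Of the 90, 58.9% were higher and 37.8% lower, beside 61.6% and 34.1% of all genes tested. At 0 in all control libraries were 24, or 26.7% beside 33.8%. The median log2 fold change was 0.53, or −0.04 after quantile normalization, that of all genes 1.12 and 0.04. Of the 53 higher, 30 entered the test through MT alone, 33.3% of the 90 beside 42.5% of all genes. Over the 63 genes above 0 in all 6 libraries 27 were higher and 33 lower, beside 2814 and 3626 of the 6925 such genes. SGO2, SKA2 and KIF23 were the genes not called. In each list the genes with the largest called changes are named.

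Cohesin loading, release and meiotic genes were higher in 8 and lower in 1 of 9 tested (7 and 2 after quantile normalization, 8 and 0 after centring), with a median log2 fold change of 3.04, 0.69 after quantile normalization and 0.98 over the 4 of these genes above 0 in all 6 libraries. Over all genes tested, 61.6% were higher, 51.0% higher by at least 2-fold, and 42.5% entered through MT alone. Of the 7 called higher by at least 2-fold, 6 (NIPBL, WAPL, PDS5A, PDS5B, ESCO1 and ESCO2) averaged at most 0.0667 TPM in control and passed the filter through the MT group alone, and 4 of the 9 were called higher by at least 2-fold after quantile normalization. NIPBL, the loader of cohesin, read 0.04, 0.07 and 0.09 TPM in control and 37.2, 41.2 and 38.2 TPM with MT. WAPL, which releases cohesin, read 0, 0 and 0 TPM and 23.5, 22.7 and 23.3 TPM. Loader and releaser were both at or near 0 in control. CDCA5, or sororin, which protects cohesin from WAPL, was the 1 gene that fell, from 8.59, 8.53 and 9.74 TPM to 7.04, 6.68 and 6.53 TPM, but read 0.12 and was not called after centring. MAU2, the partner of NIPBL, stayed under the filter at 0.08, 0.10 and 0.06 TPM and 0.37, 0.29 and 0.29 TPM. The meiotic genes SMC1B, STAG3, REC8 and RAD21L1 were listed at 0 in all 6 libraries.

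The related SMC5/6 complex had 5 genes higher and 2 lower of 7, 5 and 2 after quantile normalization and 5 and 1 after centring. Of those higher, 4 entered the test through MT alone, and over the 4 genes above 0 in all 6 libraries 2 were higher and 2 lower, with a median log2 fold change of −0.22. SMC6 read 0.12, 0.29 and 0.13 TPM in control and 41.6, 40.5 and 39.1 TPM with MT. SMC5, with which it pairs, read 58.8, 57.8 and 62.5 TPM and 16.1, 17.8 and 16.9 TPM. The non-SMC gene NSMCE1 read 0, 0 and 0 TPM and 27.8, 28.7 and 26.9 TPM. NSMCE2 read 57.8, 58.2 and 56.7 TPM and 40.2, 38.1 and 40.3 TPM, and was not called after centring. SMC6 and NSMCE1 entered the test through MT alone and had to come out higher, so no opposite movement of partners can be read from them.

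Other APC/C genes were higher in 5 and lower in 2 of 7, 4 and 3 after quantile normalization, 3 of those higher having entered the test through MT alone. The small subunits ANAPC15 and ANAPC16 were at 0 in all control libraries and read 74.7, 75.8 and 76.7 TPM and 36.4, 40.2 and 39.0 TPM with MT. Of the ubiquitin-conjugating enzymes, UBE2D1 fell from 57.9, 54.9 and 57.6 TPM to 1.54, 1.71 and 1.52 TPM and the chain-extending UBE2S fell from 337, 339 and 347 TPM to 224, 213 and 219 TPM. UBE2C, which starts chains on APC/C substrates, rose from 442, 442 and 457 TPM to 637, 643 and 663 TPM. USP44, a deubiquitinase, was at 0 in all 6 libraries.

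Other checkpoint genes were higher in 6 and lower in 7 of 14, 4 and 10 after quantile normalization and 7 and 6 after centring, and 4 of those higher entered the test through MT alone. KNTC1, or ROD, part of the complex that brings MAD1L1 and MAD2L1 to kinetochores, read 9.26, 9.53 and 9.09 TPM in control and 0.75, 0.71 and 0.76 TPM with MT. It entered the test through control alone and had to come out lower. NSL1, a subunit of the MIS12 complex that was counted in this list, read 36.1, 37.6 and 37.5 TPM and 4.03, 4.51 and 3.62 TPM. TPR and MAD2L1BP were at 0 in control and read 9.08, 9.50 and 8.69 TPM and 6.57, 5.42 and 6.63 TPM with MT.

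Other kinetochore genes were higher in 17 and lower in 8 of 26, and 12 and 12 after quantile normalization. Of those higher, 9 entered the test through MT alone, and over the 17 genes above 0 in all 6 libraries 8 were higher and 8 lower, with a median log2 fold change of −0.11. MIS12, which links KNL1 and the Ndc80 complex to the centromere, read 16.6, 19.0 and 18.0 TPM in control and 0.55, 0.84 and 0.54 TPM with MT. OIP5, which helps to deposit CENPA, read 346, 318 and 318 TPM and 91.0, 85.1 and 88.7 TPM. MIS18A, of the same deposition pathway, was at 0 in control and read 134, 139 and 136 TPM with MT. CENPT, which links the inner centromere to the Ndc80 complex, was also at 0 in control and read 29.98, 28.8 and 29.2 TPM with MT. Of the MIS12 complex, the subunits MIS12 and NSL1 were lower with MT. DSN1 and PMF1 were at 0 in control and read 11.9, 19.9 and 11.5 TPM and 23.7, 22.3 and 26.1 TPM with MT. DSN1 and PMF1 entered the test through MT alone and MIS12 through control alone, so only NSL1 could have gone either way.

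Spindle and cytokinesis genes were higher in 12 and lower in 14 of 27, 10 and 15 after quantile normalization and 15 and 9 after centring, and 4 of those higher entered the test through MT alone. NUSAP1, a microtubule-bundling protein, read 1.94, 2.73 and 2.07 TPM in control and 70.1, 76.3 and 68.9 TPM with MT. DLGAP5, which stabilizes spindle fibres, read 1.33, 1.29 and 1.31 TPM and 31.4, 31.8 and 30.6 TPM. CKAP5, a microtubule polymerase, and HMMR, a spindle assembly protein, went the other way, from 73.8, 72.1 and 73.7 TPM to 9.02, 10.2 and 8.84 TPM and from 35.0, 35.4 and 33.7 TPM to 4.79, 4.64 and 4.27 TPM. MASTL, the Greatwall kinase that sustains mitotic phosphorylation, was listed at 0 in all MT libraries, against 5.09, 4.94 and 4.56 TPM in control. It entered the test through control alone and had to come out lower.

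**Figure D4:**
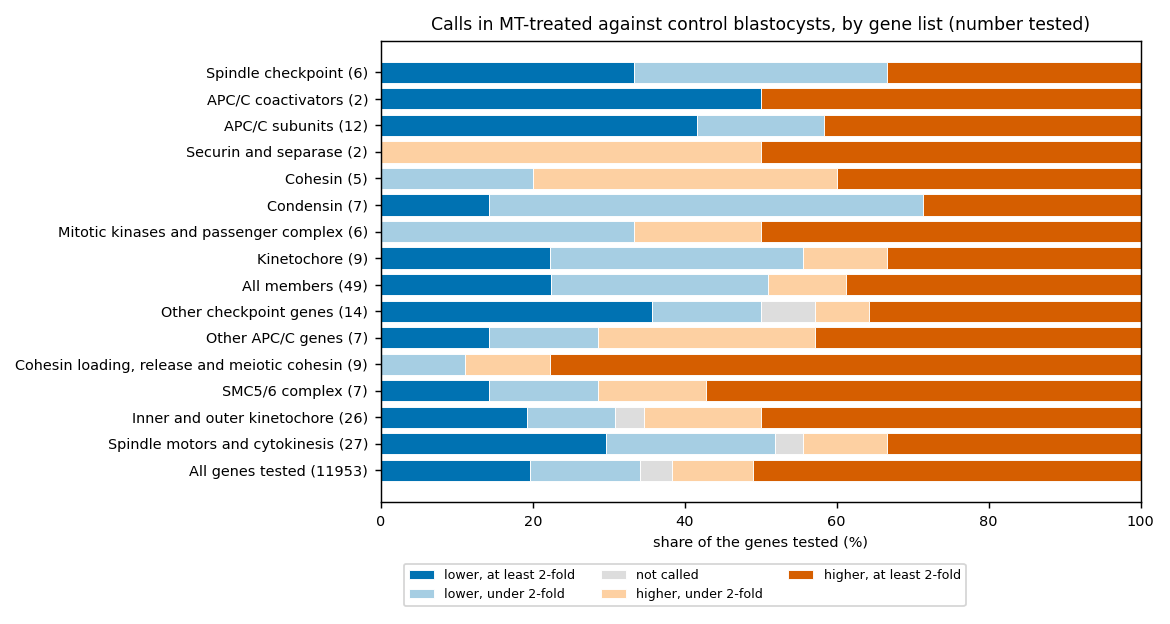
Share of the genes tested in each list that were called lower (blue) or higher (orange) with MT, dark where the change was at least 2-fold and pale where it was smaller, with grey for genes not called and the number tested in parentheses. Cohesin loading and release genes have a dark orange bar of 7 of 9, 4 of 9 after quantile normalization, and 6 of the 7 passed the filter through the MT group alone. The bar of all genes tested at the bottom gives the background, 51.0% higher and 19.6% lower by at least 2-fold.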

How the data were processed

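The authors deposited TPM values with 2 decimals for 3 control and 3 MT pools of blastocysts. Per the labels and methods, reads passed fastp and FastQC 0.11.9, STAR 2.7.9a and featureCounts (Subread 1.6.3). How counts became TPM, and whether strand was used, is not given in the sources used here, which differ on library chemistry (Smart-seq2 or TruSeq) and on the release of the ARS-UCD assembly. TPM are not counts, so the study's DESeq2 test could not be run and depth is unknown. A gene entered the test if 3 or more libraries reached 1 TPM, and the test was limma 3.58.1 (R 4.3.3) on log2(TPM + 1), with a trended variance, two-sided and unpaired, with calls at a Benjamini-Hochberg adjusted p under 0.05. The genes that passed this filter through 1 group only were counted (under 1 TPM in every library of the other group), a count added after seeing the data. The transform understates changes of low genes. The script was tested on simulated data. Members and gene lists were chosen with earlier results of these data known. All 50 members are named, with library values for up to 3 rises and 3 falls per role list and for members at 0 throughout a group. Up to 2 rises and 2 falls are named per other list. UBE2C, MASTL, MAU2, DSN1, PMF1 and genes not called or at 0 throughout were added after their values were seen. Overlaps come from RefSeq (ARS-UCD2.0), used for names only: 50 members matched and 10 overlap another protein-coding gene, with which they may share reads. Alternatives were another pseudocount, filters, scalings, a variance without trend, a replicate block and leaving out each library.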

Additional observations from a re-analysis of the deposited data

How the results depend on the processing

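Depth is unknown for TPM, so how low a level the control libraries could detect cannot be stated. Of the 49 members tested, 41 kept their call under quantile normalization and 43 under median centring, and under each of the other alternatives every member that was tested kept it. Quantile normalization reversed FZR1 (−0.93), ANAPC4 (−0.0067, not called), ANAPC5 (−0.80), ANAPC7 (−0.27), ESPL1 (−0.94), NCAPD2 (−0.13) and CENPE (−0.33) on the log2 scale. Median centring reversed BUB3 (0.10), MAD2L1 (0.40), SMC3 (0.15), SMC2 (0.015, not called), NUF2 (0.0018, not called) and, of the 23 other genes named by rule, CDCA5 (0.12, not called). Over all 90 other pathway genes tested, centring gave 58 higher and 24 lower, against 53 and 34, so further genes among them turned or changed call. The members' median log2 fold change was 0.023 with no filter, −0.37 with a minimum TPM of 5, −0.48 over genes above 0 in all 6 libraries, −0.27 after quantile normalization and 0.40 after centring. Members higher by at least 2-fold numbered 11 over genes above 0 in all 6 libraries and 9 after quantile normalization, and genes called higher numbered 2814 over genes above 0 in all 6 libraries, where fewer genes were tested. RAD21 lost its call after quantile normalization (0.04) and NCAPG after centring (−0.13). For the other changes the cause was not tested.

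Leaving out each library in turn left the members at 24 higher and 25 lower, with 19 and 11 by at least 2-fold and a median between −0.0876 and −0.0796. Over all genes it gave 7319 to 7338 higher and 4004 to 4049 lower. The replicate numbers were not shown to pair the samples: deviations from the group means correlated at −0.0115, −0.000679 and 0.0588 between equal numbers, none over 0.1, and not every library correlated best with its own number. With a replicate block, 7379 genes were called higher and 4082 lower, and the members stayed at 24 and 25.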
